A study of Astyanax mexicanus with 6 samples.

Results

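The genes described are those that encode the cyclic GMP phosphodiesterase of photoreceptors, the cyclic-nucleotide-gated channel of the outer segment and the sodium/calcium/potassium exchanger that works beside it. They are every gene ID whose name begins with pde6, cnga1, cnga3, cngb1, cngb3, slc24a1 or slc24a2. This name rule gave 15 of the 25271 gene IDs in the count table. No values entered the rule, but the set was chosen with earlier results of these data known. All 15 passed the filter on low counts. RNA and DNA were taken at about 54 hours post-fertilization from isolated eyes of wild type embryos of Astyanax mexicanus, the Mexican tetra, of the cave morph or the surface morph. There were 2 poly(A) RNA libraries per morph and 1 library per morph for whole-genome bisulfite sequencing (WGBS), a method that turns unmethylated cytosines into bases read as thymine. The labels give neither the number of embryos pooled nor the origin of replicate libraries, so the spread behind each p-value could be purely technical.

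In the dark, cyclic GMP holds the channel of a photoreceptor open, and sodium and calcium enter the outer segment. Light activates an opsin, the opsin activates transducin, and transducin releases the phosphodiesterase from its inhibitory gamma subunits. The enzyme then hydrolyses cyclic GMP, the channel closes and the exchanger goes on removing calcium. Rods and cones use different members: in vertebrates the rod enzyme is built from the products of pde6a and pde6b with pde6g, and the cone enzyme from those of pde6c and pde6h. Rod channels hold cnga1 and cngb1 subunits, and cone channels hold cnga3 and cngb3 subunits. In mammals the exchangers of rods and cones are those of slc24a1 and slc24a2.

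The labels alone assigned libraries to morphs. The cave morph is the one whose eyes later degenerate, yet the RNA of photoreceptor genes reached higher levels in the libraries labelled cave. The authors' deposited table of the same comparison names no direction, and its fold changes are negative for 14 of the 15 genes and positive for 1, opposite to cave minus surface by column names. The table matches the column names if it runs surface minus cave, and is opposite to them if it runs cave minus surface, which cannot be told apart from these files. For that reason RNA libraries are called labelled cave and labelled surface throughout. Total counts ran from 117742250 to 154476181 per library. Among all genes with 1 to 30 counts in a library, 74.4% to 86.6% of the counts were even, so a read pair may often stand for 2 counts. In bulk eye tissue, fewer cells of a type and less RNA per cell cannot be told apart.

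The libraries labelled cave held more RNA of most of these genes. By the quasi-likelihood test of edgeR across all genes with Benjamini-Hochberg adjustment, 9 of the 15 genes were higher in the libraries labelled cave and 0 were lower, where 2.77% of the 22850 genes tested were called higher and 0.407% lower. The median log2 fold change of the 15 was 2.65, against 0.02 over all genes tested. The libraries of the groups did not overlap for 14 of the 15 genes, each higher in those labelled cave, and 25.4% of all genes tested were so separated in that direction. The genes called were the catalytic subunits pde6a, pde6b and pde6c, both genes named for the cone inhibitory subunit, the channel genes cnga1, cnga3a and cngb1a, and the exchanger gene slc24a2. The genes pde6g, CNGB3, slc24a1, pde6d, the second copy named SLC24A2, and cnga3b did not pass the threshold of an adjusted p of 0.05. By class, 5 of 8 genes known from cones and 4 of 6 known from rods were called.

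**Figure D1:**
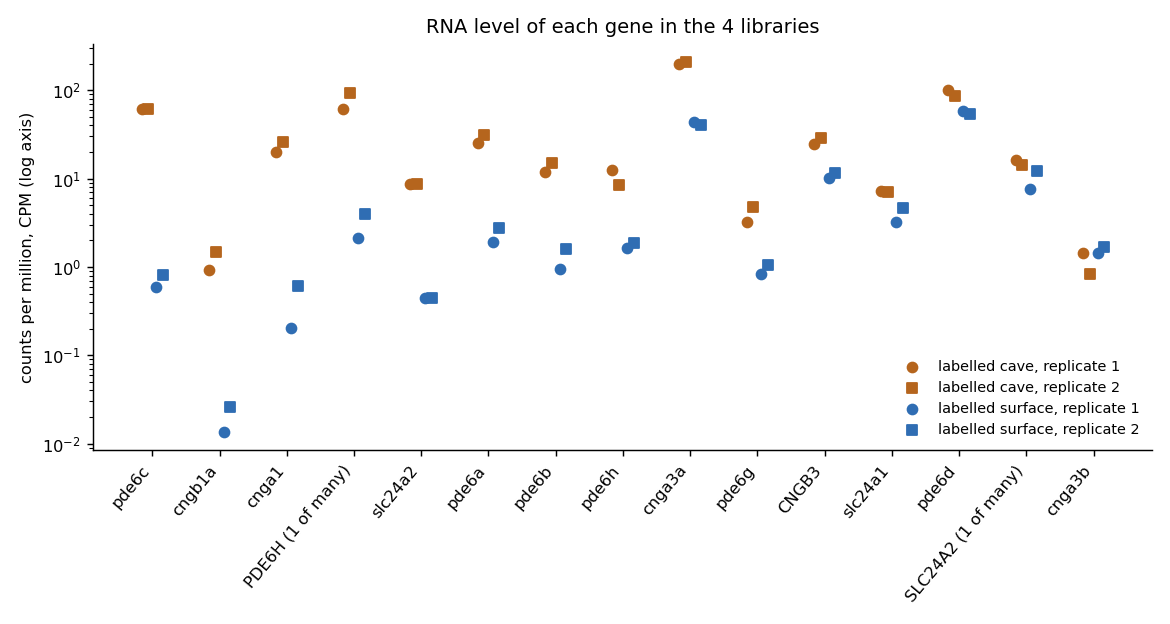
RNA level of each of the 15 genes as CPM, the count scaled to its library's total (log axis), 1 point per library, brown for the libraries labelled cave and blue for those labelled surface, circles for replicate 1 and squares for replicate 2, ordered by fold change. The brown points lie above the blue for every gene but cnga3b, and the gap runs from a mean of 61.1 against 0.71 CPM for pde6c to 15.2 against 9.91 CPM for SLC24A2.

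All 3 catalytic subunit genes of the phosphodiesterase were called. The cone subunit gene pde6c (ENSAMXG00000004926, scaffold KB871738.1, 350130 to 379800) stood at 61.3 and 60.9 CPM in the libraries labelled cave and at 0.60 and 0.82 CPM in those labelled surface, where CPM is the count scaled to the total of its library. The pair labelled cave nearly coincided, and both libraries labelled surface were far below it. The log2 fold change was 6.52 (SE 0.28; adjusted p = 0.00200), a value that 0.403% of all genes tested reached or passed. The rod subunit gene pde6a (ENSAMXG00000010673, KB882099.1, 1252231 to 1283862) stood at 25.6 and 31.2 against 1.93 and 2.78 CPM, a log2 fold change of 3.69 (SE 0.32; adjusted p = 0.00889). Its partner pde6b (ENSAMXG00000000290, KB872383.1, 74573 to 110101), the other catalytic subunit of rods, stood at 11.9 and 15.0 against 0.94 and 1.61 CPM, a log2 fold change of 3.50 (SE 0.42; adjusted p = 0.0194). In both rod genes replicate 2 was the higher library of each pair.

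The small inhibitory subunits and the delta subunit varied more among themselves. A gene named PDE6H, written in capitals in the files (ENSAMXG00000010786, KB872142.1, 119331 to 126127), stood at 60.7 and 92.7 CPM in the libraries labelled cave and 2.12 and 3.94 CPM in those labelled surface. Its log2 fold change was 4.77 (SE 0.41; adjusted p = 0.00881). A second gene with the same name in lower case, pde6h (ENSAMXG00000011446, KB871670.1, 579804 to 580207), is annotated over only 404 bases. It stood at 12.6 and 8.37 against 1.66 and 1.87 CPM, a log2 fold change of 2.65 (SE 0.39; adjusted p = 0.0335). The pair labelled cave was ordered oppositely in the copies: replicate 2 was the higher for PDE6H and the lower for pde6h. Genes that share a name may share reads, so the split between these copies is uncertain. The rod inhibitory gene pde6g (ENSAMXG00000001157, KB871895.1, 415479 to 434727) stood at 3.20 and 4.72 against 0.82 and 1.05 CPM. The groups did not overlap, but the log2 fold change of 2.17 (SE 0.49) missed the threshold (adjusted p = 0.0934). DESeq2 put pde6g past it (adjusted p = 0.000478). The gene pde6d (ENSAMXG00000010653, KB882115.1, 2608032 to 2615931) encodes a carrier of lipid-anchored proteins that is made in many cell types. It stood at 100.1 and 86.2 against 57.9 and 53.6 CPM, a log2 fold change of 0.81 (SE 0.20; adjusted p = 0.116).

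The channel genes covered nearly the whole range of differences. The rod alpha subunit gene cnga1 (ENSAMXG00000014218, KB871985.1, 274269 to 291401) stood at 20.1 and 25.9 CPM in the libraries labelled cave against 0.20 and 0.61 CPM. The libraries labelled surface differed from each other by 2.98-fold, the widest spread within a pair among the 15 genes, and the gap between the groups was still far wider. Its log2 fold change was 5.94 (SE 0.61; adjusted p = 0.0127). The rod beta subunit gene cngb1a (ENSAMXG00000014344, KB882240.1, 2006623 to 2044668) had 123 and 172 counts against 2 and 4 counts, and edgeR gave a log2 fold change of 5.95 (SE 0.84; adjusted p = 0.0296). If each read pair gave 2 counts, the group labelled surface held 3 pairs, and the ratio per total count was 59.4 with a 95% exact counting interval of 19.9 to 291, which covers counting error only. The cone alpha subunit gene cnga3a (ENSAMXG00000012953, KB882122.1, 3016733 to 3023003) stood at 197 and 207 against 43.4 and 40.2 CPM, with little spread in either pair. Its log2 fold change was 2.35 (SE 0.21; adjusted p = 0.00893).

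The other channel genes of cones were not called. CNGB3, the cone beta subunit gene (ENSAMXG00000000107, KB882133.1, 582279 to 611111), stood at 24.4 and 29.1 against 10.3 and 11.5 CPM, a log2 fold change of 1.38 (SE 0.26; adjusted p = 0.0583), and DESeq2 put it past the threshold (adjusted p = 0.000953). It overlaps a gene without a symbol (ENSAMXG00000000108, 594973 to 610234, same strand) that was higher in the libraries labelled cave by log2 1.99 (adjusted p = 0.0384), and it touches the end of cpne3, so reads of CNGB3 may be shared with them. None of the other 14 genes overlapped a neighbour in the deposited positions. The second copy of the cone alpha subunit, cnga3b (ENSAMXG00000004726, KB872763.1, 25344 to 41553), was the exception of the set. It stood at 1.45 and 0.84 CPM in the libraries labelled cave and 1.42 and 1.68 CPM in those labelled surface, so the groups overlapped, with a log2 fold change of -0.36 (SE 0.54; adjusted p = 0.781).

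Among the exchangers, one gene was called. The gene slc24a2 (ENSAMXG00000011114, KB872220.1, 5942 to 40579) stood at 8.77 and 8.59 CPM in the libraries labelled cave and at 0.45 and 0.44 CPM in those labelled surface, so that each pair nearly coincided. The log2 fold change was 4.36 (SE 0.42; adjusted p = 0.0104). A second gene of that name, SLC24A2 in capitals in the files (ENSAMXG00000021601, KB871630.1, 2329720 to 2380570), stood at 16.2 and 14.3 against 7.62 and 12.2 CPM. Its log2 fold change of 0.72 (SE 0.31) did not pass (adjusted p = 0.307). The gene slc24a1 (ENSAMXG00000003180, KB882123.1, 792483 to 817563), whose product serves rods in mammals, stood at 7.20 and 7.14 against 3.21 and 4.69 CPM, a log2 fold change of 0.95 (SE 0.37; adjusted p = 0.256).

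**Figure D2:**
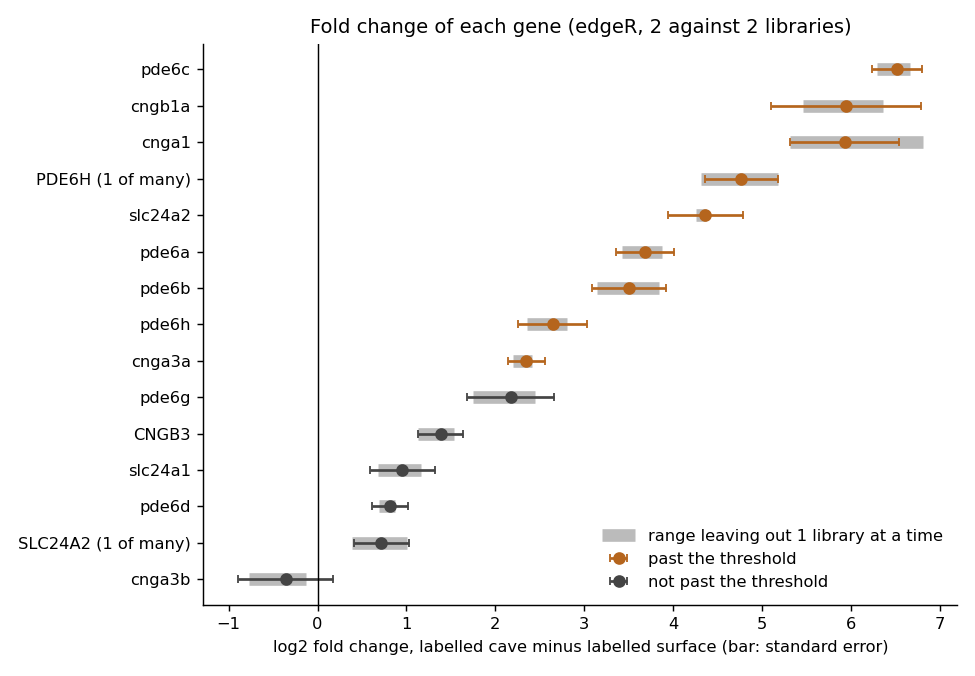
Log2 fold change of each of the 15 genes, libraries labelled cave minus labelled surface, from edgeR on 2 against 2 libraries, with standard errors as bars, brown where the adjusted p is below 0.05. Grey bands give the range when each of the 4 libraries is left out in turn, and no band crosses 0.

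The calls, and the size of some fold changes, depended on which libraries were used. Without cave replicate 1 there were 13 of the 15 genes higher (12.9% of all genes tested) and 0 lower (18.1%). Leaving out cave replicate 2 gave 12 higher (11.2%) and 0 lower (8.37%). Without surface replicate 1 or without surface replicate 2, no gene passed the threshold, neither among the 15 nor among all genes. The median log2 fold change of the 15 was 2.55 without surface replicate 1 and 2.65 without surface replicate 2. In each of these fits the lone library of a group is assumed to vary like the pair of the other group. DESeq2 on all 4 libraries called 11 of the 15 higher and 0 lower, against 6.61% and 3.14% of all genes. With the replicate number as a block edgeR called 7 higher and 0 lower, against 1.39% and 0.153%. The authors' deposited table has 11 of the 15 at an adjusted p under 0.05, each with a negative sign. The share of all genes under that threshold in the authors' table was not counted, so this number has no background here. With 1 library left out, the log2 fold change of pde6c stayed between 6.30 and 6.67 and that of cnga3a between 2.20 and 2.41, while that of cnga1 ran from 5.31 without surface replicate 1 to 6.82 without surface replicate 2. Among genes not called, that of SLC24A2 ran from 0.39 to 1.00 and that of cnga3b from -0.77 to -0.13.

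Ratios between genes within 1 library do not depend on how libraries are scaled, and gene length cancels when a ratio is compared between libraries. The pairs of genes compared were chosen after values were seen. A 2 against 2 exact permutation test cannot give a two-sided p below 0.333, so the ratios are given as values without a test. The smallest spread was between the rod catalytic genes: pde6a had 2.15 and 2.07 times the counts of pde6b in the libraries labelled cave and 2.06 and 1.73 times in those labelled surface, where the groups do not overlap and the highest ratio was 1.24 times the lowest. Of the rod channel genes, cngb1a stood at 0.0462 and 0.0563 of cnga1 against 0.0667 and 0.0426, where the groups overlap, the highest ratio was 1.57 times the lowest, and the values of the libraries labelled surface rest on 2 and 4 counts of cngb1a.

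The other proportions compared also did not overlap between the groups, and they lay farther apart. The cone gene pde6c had 2.39 and 1.95 times the counts of the rod gene pde6a in the libraries labelled cave but 0.310 and 0.294 times in those labelled surface. Channel alpha subunits differed in the opposite sense, since the rod gene cnga1 stood at 0.102 and 0.125 of the cone gene cnga3a in the libraries labelled cave and at 0.00471 and 0.0152 in those labelled surface. So neither the rod genes nor the cone genes were the more unequal between the groups throughout. Within cones, CNGB3 stood at 0.124 and 0.141 of cnga3a against 0.237 and 0.286, and PDE6H at 0.991 and 1.52 times pde6c against 3.55 and 4.83 times. The rod inhibitory gene pde6g stood at 0.125 and 0.151 of pde6a against 0.426 and 0.378.

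Copies of a gene, with the same name or differing in a suffix, were compared in the same way. PDE6H had 4.82 and 11.1 times the counts of pde6h in the libraries labelled cave and 1.28 and 2.104 times in those labelled surface. The gene slc24a2 stood at 0.542 and 0.600 of SLC24A2 against 0.0590 and 0.0361. The gene cnga3b stood at 0.00733 and 0.00407 of cnga3a against 0.0328 and 0.0418.

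**Figure D3:**
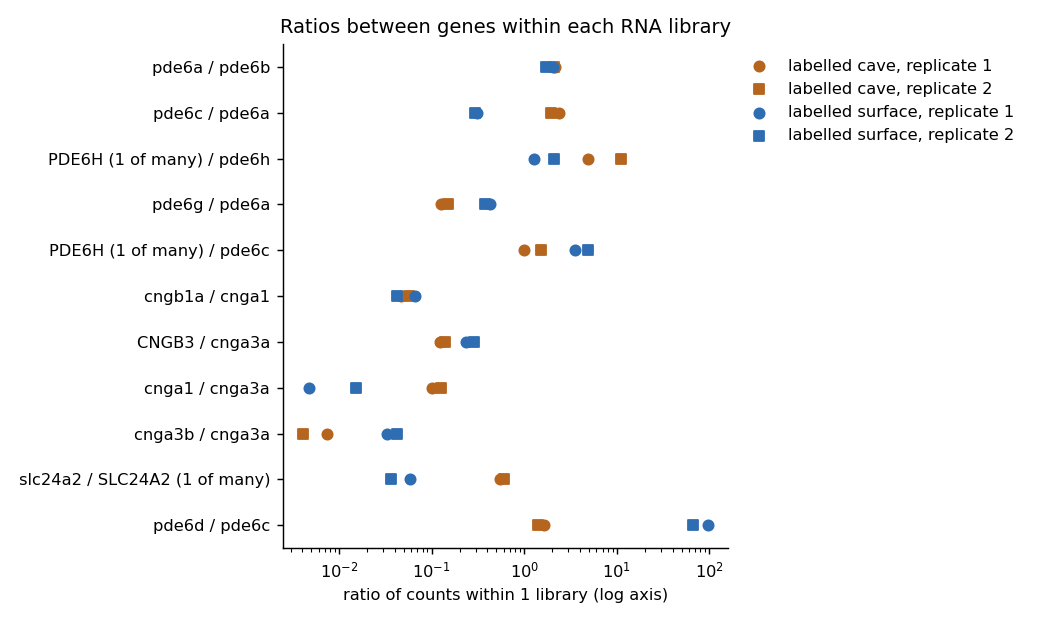
Ratio of counts between the named genes within each of the 4 RNA libraries (log axis), brown for labelled cave and blue for labelled surface. The ratios pde6a to pde6b and cngb1a to cnga1 differ by up to 1.24 and 1.57 times over the 4 libraries, while pde6c to pde6a, cnga1 to cnga3a and slc24a2 to SLC24A2 form separate groups.

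Genes of the same families that work outside the light response of photoreceptors were compared next. Of 31 such genes tested, 1 was higher and 2 were lower in the libraries labelled cave, with a median log2 fold change of -0.18. Among 18 other phosphodiesterase genes 0 were higher and 2 lower, a gene named PDE9A (ENSAMXG00000018380, log2 -3.89, adjusted p = 0.0312) and pde9a (ENSAMXG00000008265, log2 -1.88, adjusted p = 0.0317), both for enzymes that also hydrolyse cyclic GMP. The largest others were pde4ca at log2 3.76 (adjusted p = 0.286) and another PDE9A copy at -2.02 (adjusted p = 0.216). Among 8 other cyclic-nucleotide-gated and hyperpolarization-activated channel genes 1 was higher and 0 lower, hcn3 (ENSAMXG00000010054), at log2 3.60 (adjusted p = 0.00910). Among the others, HCN3 stood at log2 -1.76 and HCN2 at -1.53, neither past the threshold. Among 5 other exchanger genes 0 were called, and slc24a4b, slc24a4a, slc24a5 and slc24a3 stood at log2 1.76, 1.65, 1.57 and 0.32. No test compared these counts with those of the 15 genes. DESeq2 called 5 of the 31 higher and 5 lower, against 6.61% and 3.14% of all genes. By family it called 1 higher and 4 lower of the 18 phosphodiesterase genes and 1 and 1 of the 8 channel genes. Of the 5 exchanger genes it called 3 higher and 0 lower.

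The rest of the phototransduction chain lay on the same side. Of 46 symbols listed for opsins, transducin, guanylate cyclases and their activators, kinases, arrestins and recoverins, 31 gene IDs were found and 30 were tested. Of these 25 were higher and 0 lower, with a median log2 fold change of 5.17. Setting the genes at 0 to their bound could not move this median, since both bounds given below lie above it. By the fitted values of edgeR the first were rho, rhol, guca1d and gnb3b. The libraries labelled surface held 0 counts of rhol and of guca1d, which were at least 167-fold and 48.3-fold higher in the group labelled cave if the surface group is set to 6 counts in all, which is 3 read pairs. These bounds, log2 7.38 and 5.59, lie below the log2 fold changes of opn1lw1 (7.92) and opn1sw2 (7.90). The place of rhol and guca1d in that order is therefore uncertain. The genes whose pattern over the 4 libraries was most like the median of the 15, by the root mean square distance of centred log2(CPM + 1), were opn1mw1, guca1b, MYRFL, lctla and synm, at distances of 0.03 to 0.06. Of the 15 genes themselves pde6h lay nearest to that median, at 0.12, and pde6c farthest, at 1.59.

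Marker genes of photoreceptors and of other cell types were also counted. Of 10 photoreceptor genes outside the light response 8 were higher and 0 lower, led by rom1a, tulp1a, rom1b and prph2b, with a summed level of 1459 and 1942 CPM against 275 and 216 CPM. The regulators crx and nr2e3 were not called, at log2 1.55 and 1.58. Of that sum crx gave 240 and 547 against 164 and 119 CPM. None of the 10 was at 0 in both libraries of a group, but rom1a had only 0 and 2 counts in the libraries labelled surface. Pigment epithelium genes had 5 of 9 higher (lrata, oca2, rpe65a and stra6 first), at summed levels of 2504 and 3627 against 1184 and 864 CPM. The largest part of that sum was pmela, not called, at 1041 and 1695 against 670 and 472 CPM. Bipolar cell genes had 3 of 6 higher (grm6b, cabp2a, cabp5a, and trpm1a not called), at 288 and 753 against 271 and 177 CPM. Most of that bipolar sum was vsx1, not called, at 227 and 675 against 262 and 166 CPM. Lens genes had 3 of 5 higher (lim2.3, bfsp2, crygn2, and cryaa not called), at 298 and 346 against 60.8 and 48.1 CPM. Of 7 ganglion and amacrine cell genes (isl2b, rbpms2b, pou4f1 and pou4f2 first) 0 were called, at 500.3 and 681 against 339 and 406 CPM, and of 2 pineal genes, asmt and aanat2, 0 were called, at 74.1 and 97.1 against 41.8 and 31.4 CPM.

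Forebrain genes had 1 of 7 lower, nkx2.4b, with nkx2.4a, otpa and nkx2.1 not called, at 103 and 31.2 against 226 and 404 CPM. Epidermis genes (agr2, krt8, krt4 and tp63 first) had 0 of 7 called, and cave replicate 2 stood apart at 1036 CPM against 9850 CPM in cave replicate 1 and 7954 and 10028 CPM in the libraries labelled surface. Without cave replicate 2 the log2 fold changes of the 9 genes called from all libraries ran from 2.20 to 6.41, against 2.35 to 6.52, that of pde6h was higher (2.80 against 2.65), and the largest falls among the 15 genes were at cngb1a (from 5.95 to 5.46), PDE6H (from 4.77 to 4.31) and pde6g (from 2.17 to 1.75). The part of the other cell types in the differences of the 15 genes was not tested.

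DNA methylation of the same genes was compared between 1 WGBS library of each morph. The table's column codes, beginning with C and S, were taken as cave and surface and given to the only WGBS library of each morph, and the labels use the same codes for RNA libraries, so the direction of each methylation difference rests on that reading. The authors counted calls that were methylated and calls that were not, in an upstream region and in the body of each gene. A region was called where Fisher's exact test, two-sided and adjusted by Benjamini-Hochberg over all regions, gave an adjusted p under 0.05 and the levels differed by at least 10 percentage points. This compares those 2 libraries and not the morphs, and calls on the same read are not independent, so the p-values are too small and the 95% intervals (exact, Clopper-Pearson) too narrow. All 15 upstream regions had the 20 calls per library required, and their number of calls ran from 54 to 2660.

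Upstream, the set held calls in both directions. In the cave library 2 of the 15 regions were called higher and 4 lower, where 12.1% and 8.67% of 23680 upstream regions were so called. The median difference of the 15 was -3.00 points, against 0.73 points over all upstream regions, and 11 of the 15 differences were below 0. The largest was at the rod inhibitory gene pde6g, with 30.04% of 1378 calls methylated in the cave library (95% exact interval 27.6 to 32.5%) and 81.9% of 875 calls in the surface library (79.2 to 84.4%), a difference of -51.9 points (adjusted p = 2.18e-132). A difference of that size was reached by 0.528% of all upstream regions. The gene body of pde6g did not show it, at 48.3% of calls in both libraries.

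The other regions less methylated in the cave library were those of pde6c, cngb1a and CNGB3. The region of the cone catalytic gene pde6c stood at 65.2% of 368 calls against 83.0% of 483 calls (adjusted p = 1.93e-08). That of the rod channel gene cngb1a stood at 74.1% of only 54 calls (60.3 to 85.0%) against 93.2% of 148 calls (87.9 to 96.7%; adjusted p = 0.00197). That of CNGB3 stood at 67.2% of 238 calls against 80.2% of 121 calls (adjusted p = 0.0242), and the call was lost when the cave calls were halved (adjusted p = 0.0547), since every cave value in the table is even.

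The regions more methylated in the cave library were those of pde6h and SLC24A2. The region of pde6h stood at 92.1% of 304 calls (88.5 to 94.9%) against 71.3% of 174 calls (63.9 to 77.9%; adjusted p = 2.79e-08), while that of its namesake PDE6H stood at 94.6% against 95.5% and was not called. The region of SLC24A2 stood at 25.7% of 1072 calls against 7.94% of 1007 calls (adjusted p = 9.27e-27). That of slc24a2 was nearly full in both libraries, at 93.8% against 87.5%, a difference of 6.35 points that is under the size required. The region of pde6b, at 86.7% against 96.0%, came close to that size with -9.33 points. The regions of pde6a (61.2% against 61.8%), cnga3a (75.9% against 76.5%), cnga3b (80.2% against 83.3%) and cnga1 (83.8% against 79.8%) differed by 4.03 points or less.

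**Figure D4:**
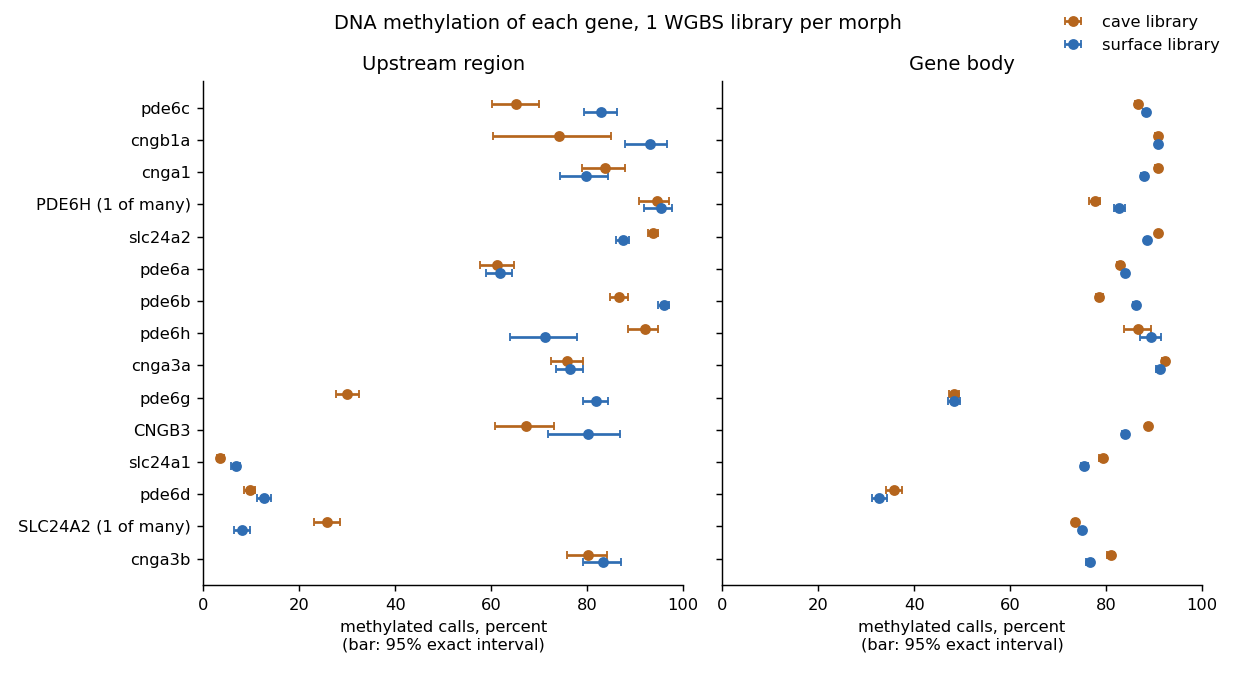
Share of calls that were methylated (percent) in the upstream region and the gene body of each of the 15 genes, brown for the cave and blue for the surface WGBS library, with 95% exact intervals for counting error. The upstream region of pde6g lies at 30.04% against 81.9%, while no gene body differs by more than 7.67 points.

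Gene bodies differed little. None of the 15 was called in either direction, where 3.15% of 25016 gene bodies were called higher and 1.99% lower in the cave library. By Fisher's exact test 12 of the 15 had an adjusted p under 0.05 but missed the required 10 points. The share of all gene bodies under that p alone was not counted. With a median of 14032 calls per body in the cave library, small differences passed it, such as -1.09 points at pde6a (adjusted p = 0.0143). The differences ran from -7.67 points at pde6b (78.6% against 86.3%) to 4.88 points at CNGB3 (88.8% against 83.9%), with a median of 0.03 points against 0.95 over all gene bodies. Levels ran from 32.7% to 92.3%, lowest in pde6d and next in pde6g, and the other 13 genes were all above 73% in both libraries.

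RNA and upstream methylation were then set side by side. Of the 9 genes higher in the libraries labelled cave, 2 were called less and 1 more methylated upstream, and 6 were not called. Of the 6 genes not called in RNA, 2 were called less and 1 more methylated, and 3 were not called. Across the 15 genes the Spearman correlation of the upstream difference with the log2 fold change was -0.09, and that of the gene body difference was -0.48. Both are descriptions of genes that share the same 6 libraries. Their signs, and the pairing of calls above, rest on the RNA labels and the methylation codes together. If only the RNA labels or only the methylation codes were exchanged, both signs would reverse. The pair pde6g and pde6h, inhibitory subunits of rods and cones, had log2 fold changes of 2.17 and 2.65 and upstream differences of -51.9 and 20.8 points. The other gene of the cone name, PDE6H, had a log2 fold change of 4.77 and an upstream difference of -0.85 points. Its namesake pde6h is annotated over only 404 bases, and the width of the upstream region is not given.

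The level of upstream methylation, besides its difference, was also set beside the RNA calls. All 9 genes called in RNA had 50% or more of upstream calls methylated in both libraries, as did 2 of the 6 genes not called, CNGB3 and cnga3b. Of the genes with both measures, 56.0% of all and 72.0% of the 604 called higher in RNA were at or above that level in both libraries. The regions of slc24a1 (3.47% against 6.70%), pde6d (9.62% against 12.6%) and SLC24A2 (25.7% against 7.94%) were low in both, and their log2 fold changes were between 0.72 and 0.95. The level of 50% was chosen after values were seen.

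**Figure D5:**
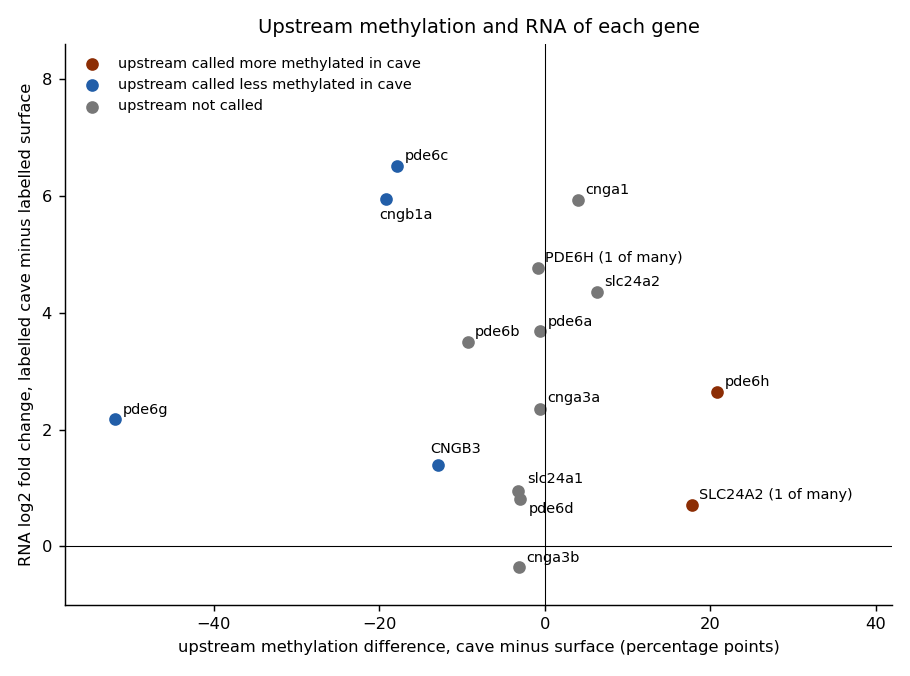
Difference in upstream methylation (cave minus surface library, percentage points) against the RNA log2 fold change (labelled cave minus labelled surface) for each of the 15 genes, coloured by the methylation call. Genes with log2 fold changes above 3 lie between -19.2 and 6.35 points. The genes pde6g and pde6h lie at opposite ends with log2 fold changes of 2.17 and 2.65.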

How the data were processed

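The authors' deposited RNA table holds raw counts per gene, and the deposited methylation table holds counts of methylated and unmethylated calls per region, per the file headers. A further deposited table holds the authors' log2 fold change and adjusted p-value, per the file headers. Tools listed in the submitters' processing notes are Bismark, DESeq2, featureCounts, STAR, Subread and Trimmomatic. Not given in the sources used here were versions, genome build, strandedness, cytosine context, duplicate removal and width of the upstream region.

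The test across all genes was edgeR's quasi-likelihood test (version 4.0.16, R 4.3.3) after TMM scaling and the default low-count filter, without a replicate block, with Benjamini-Hochberg adjustment over all genes and a threshold of 0.05. The standard error is the log2 fold change over the square root of its F statistic. DESeq2 1.42.0, other scalings, no filter, halved counts, a replicate block and leaving out each library were alternatives. Methylation was compared with scipy 1.17.1 in Python 3.11.15. Scripts were tested on simulated data. Every gene found by the name rule is named, with 4 genes per list of largest absolute fold change and the 5 nearest in pattern; 1 gene of a list is not reported here. The members and lists were chosen with earlier results of these data known. No sequences of these genes were used here.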

Additional observations from a re-analysis of the deposited data

How the results depend on the processing

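Over the alternatives run, none of the 15 genes changed the sign of its log2 fold change. Of 150 such values, 120 kept their side of the threshold, 21 lost it and 9 gained it. The methylation alternatives change calls and not the difference itself, and every member region held over 50 calls, so the minimum of calls bore on them only through the adjustment. The count of the 15 genes called higher ran from 7 to 11 over DESeq2, other scalings, no filter, halved counts and the replicate block. Leaving out 1 library at a time moved it from 0 to 13, that of the other phototransduction genes from 0 to 26 higher and from 0 to 1 lower, and that of related family genes from 0 to 7 higher and from 0 to 11 lower. DESeq2 gave 5 related family genes higher and 5 lower, and the replicate block gave 1 lower. With a required difference of 20 points, 1 upstream region was more and 1 less methylated, and with 5 points 2 gene bodies were less methylated. The shares of all regions called at 20 and at 5 points are not given, so these counts have no background here. The cause of these shifts was not tested.

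Equal replicate numbers were not shown to pair the libraries. The replicate 1 minus 2 deviations of the groups correlated at -0.071 across 22850 genes, and with the replicate block 7 of the 15 genes were called higher, without pde6h and cngb1a. Scaling to library totals lost pde6h. Depth is low for cngb1a, at 2 and 4 counts in the libraries labelled surface and 54 calls upstream in the cave library, and the upstream call of CNGB3 was lost with the cave calls halved.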
